A study of Homo sapiens with 6 samples.

Results

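Cassette exons of the solute carrier (SLC) genes were examined in MDA-MB-231-BrM2a cells, a line selected from the human breast cancer cells MDA-MB-231 for metastasis to the brain, with and without RBM47, an RNA-binding protein that takes part in splicing and mRNA stability. Members were all events whose gene symbol began with SLC, a number and A, B, C, D or O, which gave 386 of 24725 cassette exon events and 126 of 7969 named genes. A cassette exon event is an exon that is either kept between its neighbours or skipped. The control group was 3 cultures of cells that carried the empty vector pRetroX-Tight-Pur and were not clonal. The RBM47 group was 3 cultures of a single clone (wt#10) with a doxycycline-inducible, Flag-tagged wild-type RBM47 in the same vector system. All 6 cultures had been kept in 10 ng/ml doxycycline for 3 days, so the drug was shared by both groups. Because the RBM47 cells came from 1 clone, an effect of RBM47 and a property of that clone cannot be told apart.

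SLC genes encode membrane proteins that carry ions, sugars, amino acids, nucleosides, metals and metabolites across the plasma membrane and the membranes of organelles. They work as exchangers, cotransporters or facilitators and are numbered by family, so that the number gives the substrate class in most cases. Many of them pass through the membrane with many helices, and an exon kept or skipped in frame removes or adds part of such a chain, whereas one out of frame changes the rest of the reading frame. Cancer cells depend on several members, among them the glucose transporter SLC2A1, the cystine importer SLC7A11, the lactate exporter SLC16A3 and the glutamine transporters SLC38A1 and SLC38A2. Not every symbol caught by the rule names a transporter: SLC9A3R1 is a scaffold protein that binds a sodium/proton exchanger, and SLC2A4RG is a transcription factor. Each of the pair had 1 event, and neither passed the study's criteria or entered the limma test.

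The measured value was the inclusion rate, the share of transcripts that keep the exon, computed by the authors as a fraction from junction reads that join the exon to its neighbours and from those that bypass it. Reads were given only as group totals, so the depth of each culture is unknown and no interval can be set on a single culture's rate. The SLC events held 316064 junction reads in control and 282381 in RBM47 cells, a ratio of 0.893 against 0.910 for the whole table. The median number of reads per SLC event was 259 for control and 205 for RBM47 cells, and the range over both groups together was 25 to 75164. Of 8 genes of mesenchymal-like breast cancer cells, 7 had junction reads, led by VIM with 171444 and 122643. Of 8 epithelial genes, ESRP2 and KRT8 had an event, and the KRT8 reads were 3199 in control and 6358 in RBM47 cells. RBM47 itself had no event, so the transgene could not be checked in these data. RBM47 replicate 2 stood apart: 13.3% of its rates in SLC events of intermediate inclusion equalled 0 or 1, while in the other 5 cultures 4.08% to 10.2% did.

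The printed rates of 19 SLC rows did not average to the group means printed in the same row, and their rates were taken from the row that did. In 16 of these rows both group means identified the source, and in 3 rows (SLC10A7, SLC30A6 and SLC22A18) the RBM47 mean alone did. For these 3 the averages printed in the row would give differences of 0.779, 0.695 and 0.738, in place of the 0.393, 0.221 and 0.320 given here. Their printed control averages were 0.0370, 0.0668 and 0.212, the matched control rates averaged 0.423, 0.541 and 0.631, and the summed reads of the same rows gave 0.452, 0.554 and 0.659. Coordinates are given as in the table, which names no build. For 383 events the gene was found in the GRCh37 annotation, and only 19 of them fell within its bounds, so the coordinates are not taken as GRCh37 positions.

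To show what is being kept or skipped, exons were identified in GRCh37 by gene name and by the distance between the outer ends of the neighbouring exons, and 193 of 386 events had 1 such exon. These were 167 different exons with a median length of 120 bases, and 63 of them had a length that is a multiple of 3. The exons printed here were chosen after the values were seen, from events described in detail that had a coding candidate exon. Not every such event is printed. The SLC30A6 and SLC25A35 events had 2 candidate exons each and so are not among the 193. Exon bases are in capitals and the 20 intron bases on either side are in lower case, 5′ to 3′ on the gene's strand. Every exon printed is preceded by the intron bases ag and followed by gt, except the shorter form of SLC25A35, which is followed by gc.

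SLC30A6, 49 bases, chr2:32422413-32422461, plus strand: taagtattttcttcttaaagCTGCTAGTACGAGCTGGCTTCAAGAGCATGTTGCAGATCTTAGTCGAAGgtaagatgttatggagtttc
SLC2A6, 186 bases, chr9:136338537-136338722, minus strand: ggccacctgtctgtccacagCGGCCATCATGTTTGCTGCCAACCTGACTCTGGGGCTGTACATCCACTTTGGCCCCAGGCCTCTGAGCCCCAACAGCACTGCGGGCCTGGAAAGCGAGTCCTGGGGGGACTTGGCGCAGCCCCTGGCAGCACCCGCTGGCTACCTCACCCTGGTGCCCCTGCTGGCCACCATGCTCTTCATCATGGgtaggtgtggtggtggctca
SLC25A23, 168 bases, chr19:6452323-6452490, minus strand: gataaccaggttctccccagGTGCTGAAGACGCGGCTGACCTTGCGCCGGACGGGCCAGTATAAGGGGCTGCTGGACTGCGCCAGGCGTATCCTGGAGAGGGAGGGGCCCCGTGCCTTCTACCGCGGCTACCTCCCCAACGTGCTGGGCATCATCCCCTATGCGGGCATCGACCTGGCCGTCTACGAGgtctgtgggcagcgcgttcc
SLC25A35, longer form of 76 bases, chr17:8193921-8193996, minus strand: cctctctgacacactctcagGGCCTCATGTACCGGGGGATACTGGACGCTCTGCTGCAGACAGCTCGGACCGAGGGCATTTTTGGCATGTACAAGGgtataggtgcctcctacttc
SLC25A35, shorter form of 64 bases, chr17:8193933-8193996, minus strand: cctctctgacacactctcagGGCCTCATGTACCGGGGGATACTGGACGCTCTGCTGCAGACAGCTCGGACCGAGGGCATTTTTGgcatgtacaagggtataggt
SLC9A7, 60 bases, chrX:46495024-46495083, minus strand: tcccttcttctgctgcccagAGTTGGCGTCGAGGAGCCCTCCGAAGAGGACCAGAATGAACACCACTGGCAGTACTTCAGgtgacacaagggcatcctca

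The SLC2A6, SLC25A23 and SLC9A7 exons have a length that is a multiple of 3, and the SLC30A6 exon of 49 bases and both SLC25A35 forms do not. The 2 forms of SLC25A35 share their start and differ by 12 bases at the donor end, and both fit the span of the same event. For SLC30A6 a longer exon of 75 bases with the same end also fits the span, so the upstream lower-case bases printed for it are part of that longer form.

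The first question was which SLC exons differed between control and RBM47 cells under the study's own criteria, a Fisher's exact p of at most 0.05 on the summed reads, mean inclusion rates that differ by 0.2 or more, and 10 or more reads. Exons of SLC10A7, SLC22A18, SLC7A6, SLC30A6 and SLC25A40 passed, all 5 with higher inclusion in RBM47 cells, and 0 passed in the other direction. That was 5 of 386 SLC events (1.30%), against 1.40% of all events in either direction and 0.611% of all events in the higher direction. The share in either direction was thus near that of the table. Most of the 347 events of the table that passed lay in rows whose rates had been re-matched, as did those of SLC10A7, SLC22A18 and SLC30A6. Both shares therefore rest largely on the matching. The Fisher criterion alone was met by 48 SLC events (12.4%), against 14.4% of all events. Because the reads of the cultures are pooled for Fisher's test, it takes no account of how the cultures vary.

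SLC10A7 is a membrane protein placed in the bile acid transporter family and is linked to cellular calcium handling. Its event (chromosome 4, 147394800 to 147399438) had rates of 0.385, 0.385 and 0.50 in control and 0.630, 1.00 and 0.818 in RBM47 cells. Every RBM47 culture was above every control culture. The mean rose from 0.423 ± 0.0666 to 0.816 ± 0.185 (SD, n = 3), a difference of 0.393 (0.348 from summed reads), which was the largest of the SLC events in either direction. The exon was kept in 33 reads and skipped in 20 in control cells, and kept in 64 and skipped in 8 in RBM47 cells (Fisher's exact p = 0.000888). Without RBM47 replicate 2, where all reads kept the exon, the difference was 0.301.

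SLC22A18, a putative organic cation carrier in an imprinted region, followed with a difference of 0.320, or 0.288 from summed reads (chromosome 11, 2886038 to 2894545). The rates were 0.75, 0.714 and 0.429 in control and 0.852, 1.00 and 1.00 in RBM47 cells, and the groups did not overlap. The mean rose from 0.631 ± 0.176 to 0.951 ± 0.0855 (SD, n = 3), with 27 reads keeping and 7 skipping the exon in control, against 71 and 2 in RBM47 cells (Fisher's exact p = 0.00433). A second SLC22A18 event that ended at the same place had rates of 1.00 in all 3 controls and 0.935, 1.00 and 0.943 in RBM47 cells.

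SLC7A6 encodes y+LAT2, a light chain that pairs with the SLC3A2 heavy chain to exchange cationic and neutral amino acids. The rates of its passing event (chromosome 16, 66855953 to 66866652) were 0.727, 0.692 and 0.50 in control and 1.00, 1.00 and 0.857 in the RBM47 cultures. The mean rose from 0.640 ± 0.122 to 0.952 ± 0.0825 (SD, n = 3), a difference of 0.313 (Fisher's exact p = 0.0147). Only 8 skipping reads in control and 2 in RBM47 cells stood behind it, and the rates from summed reads differed by 0.173, under the 0.2 that the criteria ask. A second event with the same outer ends and the same skipping reads had means of 0.804 and 0.963, so the pair is 1 observation of the skipping junction. Of the other SLC7A6 events, those with intermediate rates differed by less than 0.02: the differences were -0.0104 and -0.00910.

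SLC30A6 (ZnT6) forms a dimer with SLC30A5 (ZnT5) that loads zinc into the secretory pathway. Its passing event (chromosome 2, 32272461 to 32276398 in the table), whose span fits the 49-base exon printed above and that of 75 bases, had rates of 0.610, 0.480 and 0.533 in control and 0.720, 0.90 and 0.667 in the RBM47 cultures. The groups did not overlap. The mean rose from 0.541 ± 0.0654 to 0.762 ± 0.122 (SD, n = 3), a difference of 0.221 (154 including reads to 62 skipping in control, 87 to 15 in RBM47 cells, Fisher's exact p = 0.00745). The difference fell under 0.2 without RBM47 replicate 2 (0.152), without control replicate 2 (0.190) and with rates from summed reads (0.190). A second event with the same outer ends and the same skipping reads went from 0.712 to 0.862. The table does not say which of these events is the exon of 49 bases and which that of 75. The remaining 5 SLC30A6 events were nearly always kept or nearly always skipped in both groups, and none differed by over 0.034.

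SLC25A40, a carrier of the inner mitochondrial membrane linked to glutathione import, passed on the strength of 1 culture. Its rates (chromosome 7, 87327822 to 87343584) were 0.00, 0.00 and 0.0769 in control and 0.00, 0.00 and 1.00 in RBM47 cells, on 36 and 12 reads (Fisher's exact p = 0.0321). The difference of 0.308 was smaller than the SD of 0.577 among the RBM47 cultures, and without RBM47 replicate 3 it was -0.0256. Another SLC25A40 exon (87308883 to 87314372) was kept at 0.931, 0.909 and 0.882 in control and in all reads of the 3 RBM47 cultures. That event rested on 7 skipping reads in control and 0 in RBM47 cells, and its Fisher's exact p was 0.101. Its mean rate was above the range tested with limma, and its difference of 0.0925 had a limma adjusted p of 0.0261 when events of all mean rates were tested.

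**Figure D1:**
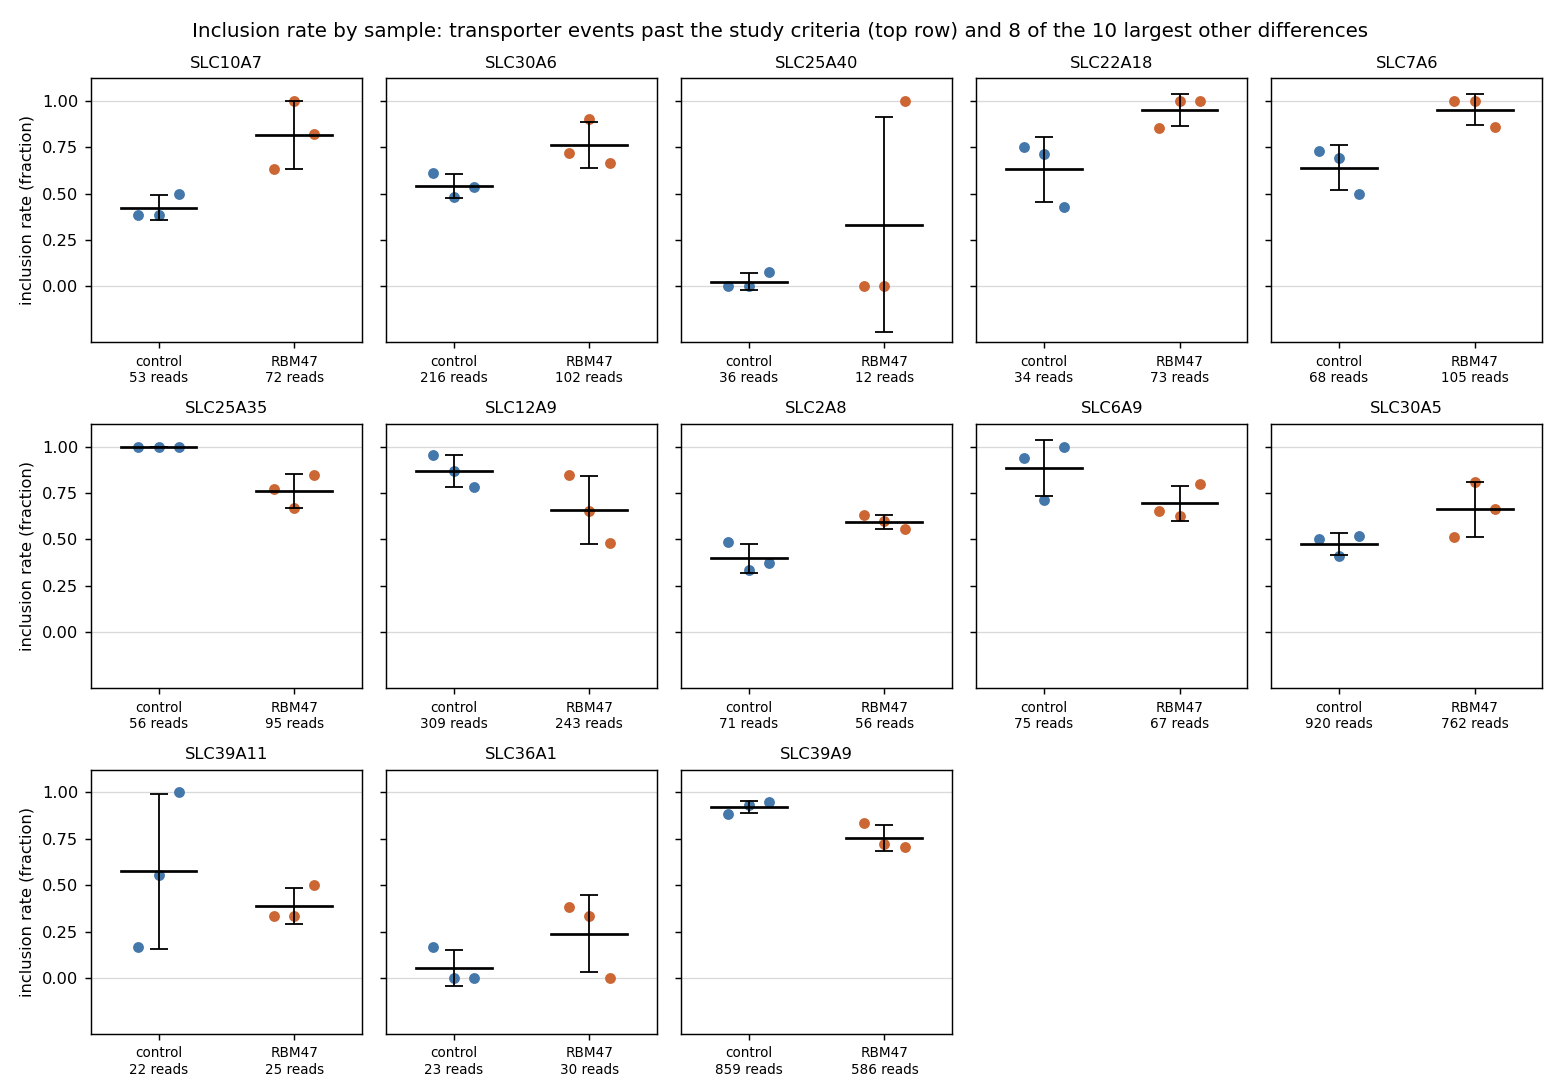
Inclusion rate (fraction, y axis) of each culture in control (blue, n = 3) and RBM47 cells (orange, n = 3), with the mean as a horizontal bar, the SD as an error bar and the group's junction reads under each axis. The top row holds the 5 events past the study's criteria, of which 4 have groups that do not overlap and SLC25A40 rests on 1 culture at 1.00, and the lower rows hold 8 of the 10 largest other differences among the events tested with limma.

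A second test took the spread between cultures into account. limma was applied to the arcsine square root of the rates where the mean over all 6 cultures lay between 0.1 and 0.9, with Benjamini-Hochberg adjustment over all 5999 such events in the table. Of 386 SLC events 98, in 59 genes, fell in this range. None of the 98 had an adjusted p under 0.05, against 134 of the 5999 events tested in the table. So 0 also passed with a difference of at least 0.2, against 1.53% of all events tested. When limma was fitted to only the rows aligned as deposited, 1 event of the whole table passed, so that share too depends on re-matched rows. At an unadjusted limma p under 0.05 there were 14 SLC events. Of the 98 tested, 10 (10.2%) had such a p with a higher mean in RBM47 cells, against 5.33% of all events tested. Another 4 (4.08%) had such a p with a lower mean, against 6.67%. SLC7A6, SLC30A6 and SLC50A1 each gave 2 of the 10 higher events, and in SLC7A6 and SLC30A6 these share their skipping reads. In 19 SLC events (19.4%) no culture of 1 group lay within the range of the other, 12 higher and 7 lower, against 17.8% of all events tested. The share without overlap was close to that of the table. An exact permutation test of 3 against 3 cultures cannot give a p below 0.1 for a single event.

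The lowest limma adjusted p values belonged to 2 events with lower inclusion in RBM47 cells. SLC39A9 (ZIP9) brings zinc into the cytosol from the Golgi and other compartments. Its rates (chromosome 14, 68992201 to 68998857) were 0.882, 0.931 and 0.946 in control and 0.833, 0.721 and 0.707 in RBM47 cells. All RBM47 cultures were below all controls, with means of 0.920 ± 0.0333 and 0.754 ± 0.0692 (SD, n = 3) and a difference of -0.166 (limma adjusted p = 0.0595). The summed reads, with 8 skipping to 851 including in control and 17 to 569 in RBM47 cells, gave a smaller difference of -0.0379. In both groups the rate from summed reads lay above the rate of every culture. The reason for the gap was not tested. Without RBM47 replicate 1 the difference was -0.206 and the limma adjusted p 0.0484.

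SLC25A35, an orphan carrier of the mitochondrial family, had a rate of 1.00 in all 3 controls and of 0.769, 0.667 and 0.846 in RBM47 cells (chromosome 17, 8133896 to 8135018). The exon, printed above in both of its possible forms, was thus skipped in some reads of every RBM47 culture and in none of the control reads. The difference was -0.239 (limma adjusted p = 0.0754), or -0.119 from summed reads and -0.192 without RBM47 replicate 2, its lowest culture, and 0 of 56 reads skipped the exon in control against 6 of 95 in RBM47 cells (Fisher's exact p = 0.0849). As for SLC39A9, the RBM47 rate from summed reads lay above the rate of every RBM47 culture, and the reason was not tested. A second SLC25A35 event varied widely in both groups, from 0.286 to 0.692 in control and from 0.25 to 0.667 in RBM47 cells.

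**Figure D2:**
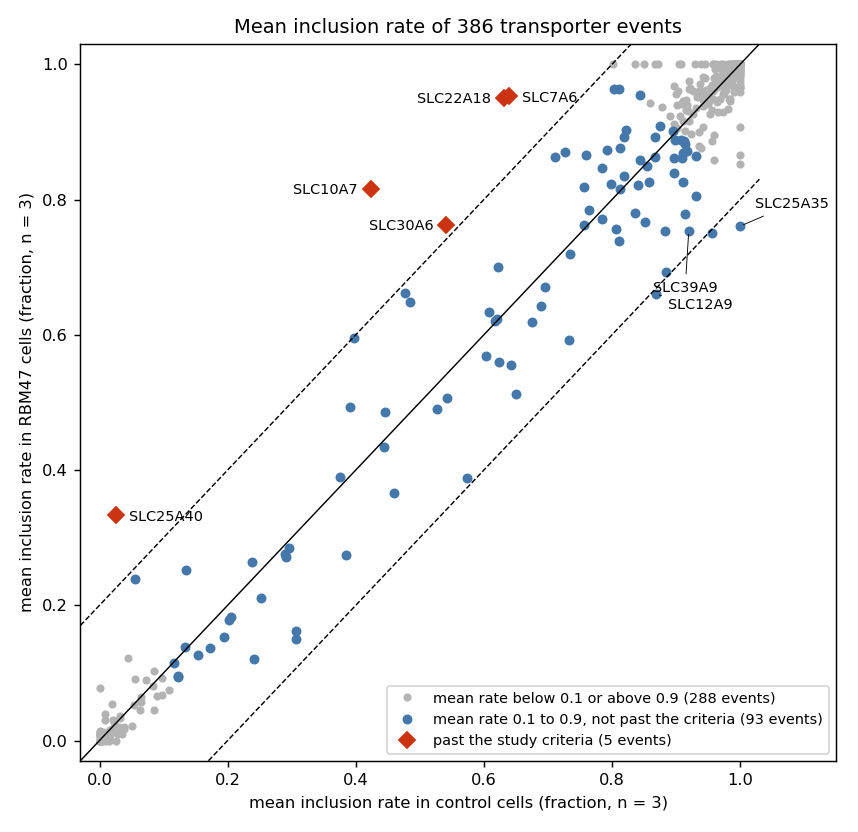
Mean inclusion rate of the 386 SLC events in control (x axis) and RBM47 cells (y axis), as fractions over 3 cultures each, with the line of equal rates and dashed lines at a difference of 0.2. Most points lie in the corners near 0 and 1, and the 5 events past the criteria lie above the upper dashed line.

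Most SLC exons were close to all or nothing. The overall mean rate was at least 0.9 in 215 events (55.7%) and under 0.1 in 73 (18.9%), against 55.7% of all events at 0.9 or more and 4942 of 24707 under 0.1. The rate was 1 in all 6 cultures for 45 SLC events and 0 in all 6 for 11. Among the 98 events of intermediate rate, 40 means were higher and 58 lower in RBM47 cells (2825 and 3171 of all 5999). Of the 98, 48 differed by less than 0.05 (49.0%, against 43.6% of all events tested), and 8 by at least 0.2 (658 of all 5999). The median difference of the 98 was -0.0169, against -0.00562 over all events tested. Over the 365 SLC events that had 30 or more reads in both groups, the median difference was 0, as it was over all such events. For comparison, the other transporter genes of the table (ABC transporters, P-type ATPases and MFSD genes) had 132 events in 44 genes, and 2 of 131 with rates (1.53%) passed the study's criteria.

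**Figure D3:**
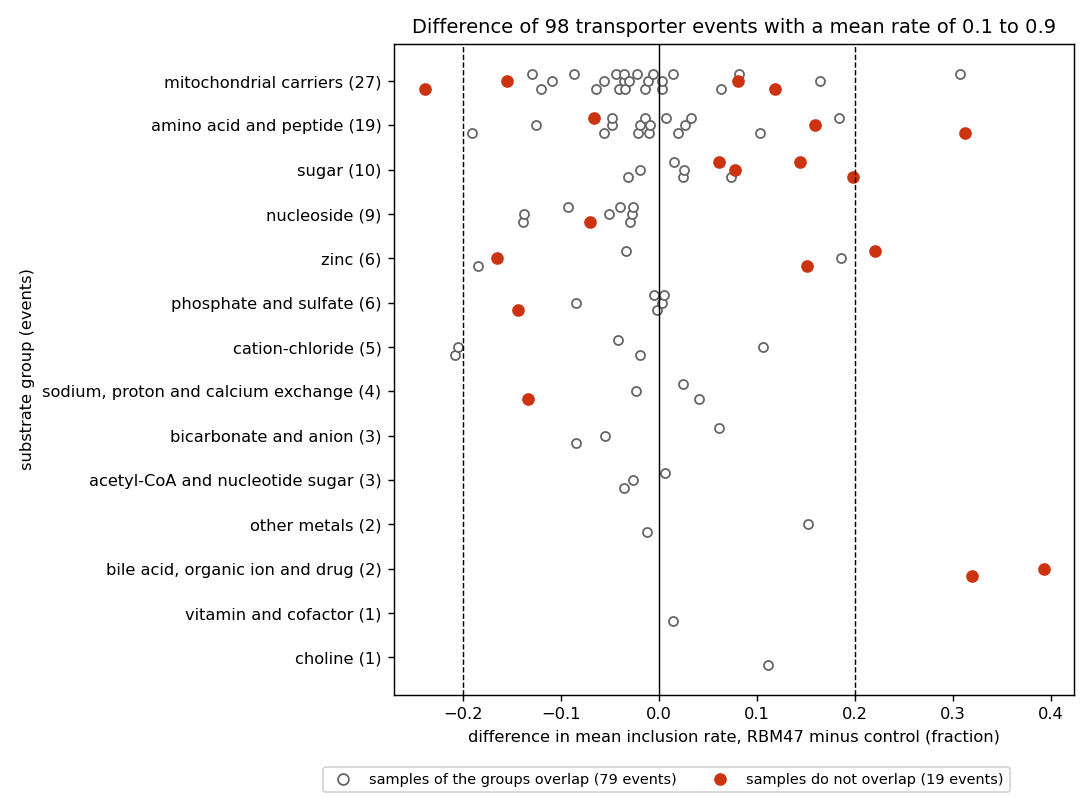
Difference in mean inclusion rate (RBM47 minus control, fraction, x axis) of the 98 SLC events with a mean rate of 0.1 to 0.9, by substrate group (y axis, with the number of events). Filled points are the 19 events whose cultures do not overlap between groups, and dashed lines mark 0.2 in either direction.

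Zinc transporters came in 13 genes and 28 events, of which 6 could be tested, and these included values far from 0 in both directions. They were the paired SLC30A6 events and SLC39A9 described above, SLC30A5, SLC39A11 and SLC39A4. The SLC30A5 event (chromosome 5, 68434644 to 68436298) was the best covered of them after SLC39A4, with 920 reads in control and 762 in RBM47 cells. Its rates were 0.504, 0.408 and 0.516 in control and 0.512, 0.811 and 0.663 in RBM47 cells. RBM47 replicate 1 lay within the control range and the other pair of RBM47 cultures above it. The means were 0.476 ± 0.0593 and 0.662 ± 0.15 (SD, n = 3), a difference of 0.186 just under the criteria's 0.2 (Fisher's exact p = 3.75e-14, limma adjusted p = 0.323). Skipping reads were 260 in control and 101 in RBM47 cells, and the summed reads gave a difference of 0.207. The difference was 0.206 without control replicate 3, 0.261 without RBM47 replicate 1 and 0.111 without RBM47 replicate 2. Both genes of the ZnT5 and ZnT6 dimer thus had an exon with a higher mean in RBM47 cells, and in both RBM47 replicate 2 was the highest culture. The other SLC30A5 events, outside the tested range, differed by -0.0345 and 0.0150. SLC39A11 (ZIP11) ranged from 0.167 to 1.00 among the controls on 22 reads. SLC39A4 (ZIP4), the intestinal zinc importer, had means of 0.603 and 0.569 with overlapping cultures. SLC39A7 (ZIP7), which releases zinc from the endoplasmic reticulum, was the most deeply read zinc gene, and its 3 events stayed between 0.937 and 0.971 in all 6 cultures.

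The sugar group had 10 genes and 26 events. It was set by family number, so not every member, SLC5A6 among them, is known as a sugar carrier. Of the 10 tested events 8 had a higher mean in RBM47 cells and 2 a lower one. In 4 the groups did not overlap, all higher, against 17.8% of all events tested that did not overlap in either direction. The median difference of the group was 0.0434. Since 5 of the 10 came from SLC50A1, of which 3 share their skipping reads, they are not separate observations. SLC50A1 (SWEET1) is a small sugar facilitator of the Golgi. The event between 153375398 and 153376821 on chromosome 1 had rates of 0.615, 0.626 and 0.627 in control and 0.728, 0.676 and 0.695 in the RBM47 cultures. The difference of 0.0771 between means of 0.623 ± 0.00677 and 0.70 ± 0.0265 (SD, n = 3) was larger than the spread in either group, on 792 and 1629 reads (Fisher's exact p = 0.000428, limma adjusted p = 0.284). The other 4 tested SLC50A1 events differed by 0.0249 to 0.0734, of which 1 did not overlap.

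SLC2A6 (GLUT6), a lysosomal hexose transporter, kept its 186-base exon at 0.698, 0.75 and 0.733 in control and at 0.927, 0.852 and 0.833 in RBM47 cells. The groups did not overlap, and the difference was 0.144 on 133 and 151 reads (Fisher's exact p = 0.0178, limma adjusted p = 0.425). SLC2A8 (GLUT8), an intracellular hexose transporter, had rates of 0.484, 0.333 and 0.375 in control and 0.630, 0.60 and 0.556 in RBM47 cells for 1 event (chromosome 9, 129202006 to 129205902). Its difference of 0.198 lay just under 0.2, and with 17 and 9 skipping reads neither test passed (Fisher's exact p = 0.376, limma adjusted p = 0.585). From summed reads the difference was 0.109. A second SLC2A8 event differed by 0.0152. SLC2A1, the main glucose importer, was at 0.997, 1.00 and 1.00 in control and at 0.998, 1.00 and 1.00 in RBM47 cells on 5948 reads.

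The tested events of nucleoside transporters pointed the other way. All 9 tested events, 7 of SLC29A1 (ENT1) and 2 of SLC29A2 (ENT2), had a lower mean in RBM47 cells, by 0.0272 to 0.140, with a median difference of -0.0508. Without RBM47 replicate 2 all 9 were still lower, by 0.00545 to 0.0903, and without control replicate 3 there were 8. None had an unadjusted limma p under 0.05, and in 1 the groups did not overlap. All 7 SLC29A1 events have the same last end. Of the 7, 4 share both outer ends and 3 of these their skipping reads (493 and 293), so the 9 events are not independent. The SLC29A1 event that did not overlap (chromosome 6, 44299514 to 44303056) had rates of 0.80, 0.795 and 0.836 in control and 0.758, 0.778 and 0.683 in RBM47 cells (limma adjusted p = 0.718). The most-read SLC29A1 event kept its exon in all control reads and missed it in 1 of 1747 reads in RBM47 cells. The SLC29A2 event with the largest difference had rates of 0.772, 0.778 and 0.647 in control and 0.651, 0.474 and 0.653 in RBM47 cells, which overlap (limma adjusted p = 0.460), and its difference of -0.140 was -0.0801 without RBM47 replicate 2. Of the 4 SLC29A2 events outside the tested range, 3 had a higher mean in RBM47 cells. The 2 events of SLC29A3, the remaining gene of the group, were also outside that range, with differences of 0.128 and -0.0924.

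**Figure D4:**
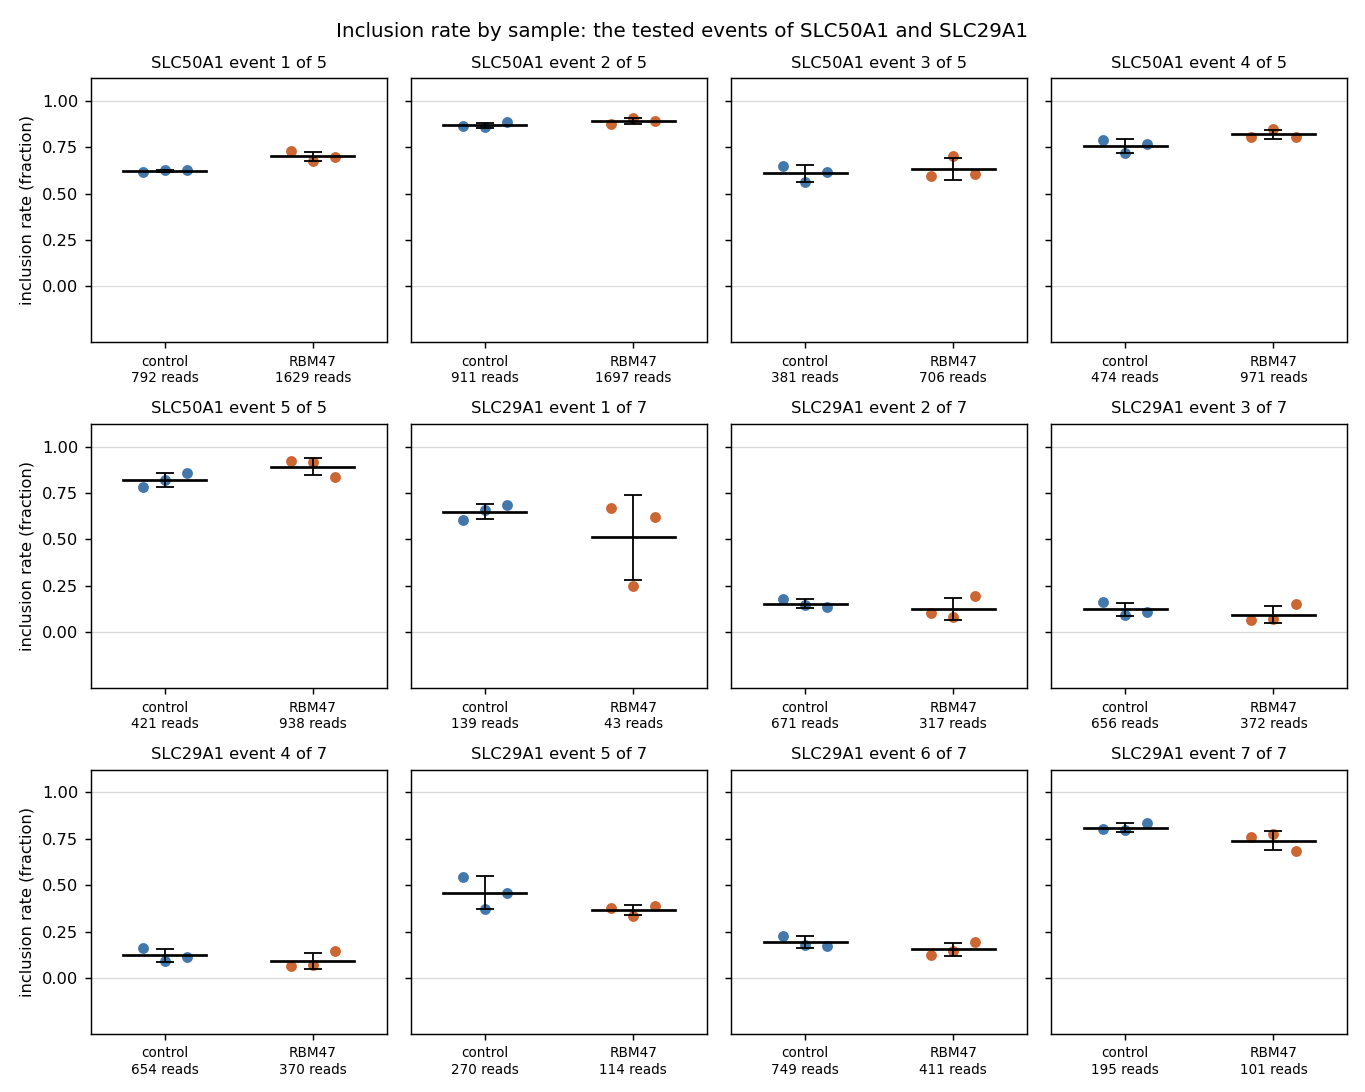
Inclusion rate (fraction, y axis) of each culture for the 5 tested events of SLC50A1 and the 7 of SLC29A1, in order of position, with mean, SD and the junction reads of each group. The SLC50A1 means are higher and the SLC29A1 means lower in RBM47 cells, by at most 0.0771 and 0.138, and the cultures overlap in most panels.

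Amino acid and peptide transporters held 61 events in 18 genes, and of 19 tested 8 had a higher and 11 a lower mean in RBM47 cells. Apart from SLC7A6, the event with the lowest limma p was in SLC38A1 (SNAT1), which brings glutamine into cells. Its rates (chromosome 12, 44909613 to 44948855) were 0.936, 0.923 and 0.936 in control and 0.895, 0.857 and 0.842 in the RBM47 cultures. The shift of -0.0666 was larger than the SDs of 0.00772 and 0.0273 without overlap, on 1756 and 823 reads (Fisher's exact p = 0.00277, limma adjusted p = 0.155). A neighbouring SLC38A1 event with the same first end and another last end (44949092) went the other way, from 0.891, 0.872 and 0.929 to 0.944, 0.960 and 1.00 (Fisher's exact p = 3.78e-05), and its mean rate was above the range tested with limma. The glycine transporter SLC6A9 had rates of 0.939, 0.714 and 1.00 in control and 0.655, 0.625 and 0.80 in RBM47 cells. Its difference of -0.191 came with a Fisher's exact p of 0.0385 and a limma adjusted p of 0.495, and with each culture left out in turn it ranged from -0.133 (without control replicate 3) to -0.276 (without control replicate 2). SLC36A1, a proton-coupled transporter of lysosomes, was read only 23 and 30 times, and its rates of 0.167, 0.00 and 0.00 against 0.385, 0.333 and 0.00 overlapped. The most-read events of SLC7A11, SLC1A4 and SLC38A2 were near 1 throughout: their lowest rates were 0.979, 0.965 and 0.976, all in control cells.

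Mitochondrial carriers of the SLC25 family were the largest group, with 30 genes and 108 events. Of 27 tested events 9 had a higher and 18 a lower mean in RBM47 cells, with a median difference of -0.0311. SLC25A23, a calcium-regulated carrier that exchanges ATP-Mg for phosphate, kept its 168-base exon at 0.802, 0.776 and 0.80 in control and 0.910, 0.876 and 0.832 in RBM47 cells. Every RBM47 culture was above every control, and the means of 0.793 ± 0.0141 and 0.873 ± 0.0388 (SD, n = 3) differed by 0.0802 on 817 and 913 reads (Fisher's exact p = 0.00157, limma adjusted p = 0.269). SLC25A14 (UCP5) had rates of 0.111, 0.143 and 0.15 in control and 0.312, 0.273 and 0.172 in RBM47 cells, also without overlap, on 74 and 55 reads (limma adjusted p = 0.690).

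In SLC25A26, which imports S-adenosylmethionine into mitochondria, 2 events outside the tested range were chosen for mention after their values were seen. An exon between 66502591 and 66511193 on chromosome 3 was kept at 0.965, 0.951 and 0.957 in control and in all reads of the 3 RBM47 cultures, with 14 skipping reads in control and 0 in RBM47 cells (Fisher's exact p = 3.16e-05). An exon between 66396445 and 66479521 was kept at 0.0120, 0.00 and 0.0149 in control and at 0.0370, 0.0456 and 0.0357 in RBM47 cells (Fisher's exact p = 1.19e-05). Both differences, 0.0425 and 0.0305, were small beside the 0.2 of the criteria. With events of all mean rates tested, the first had a limma adjusted p of 0.0148. The abundant carriers barely skipped: SLC25A3, the phosphate carrier, lay between 0.980 and 0.989 in all 6 cultures on 75164 reads, and SLC25A5, the ADP/ATP carrier, was at 1.00 in all 6 on 24932 reads.

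Among ion carriers, the cation-chloride family had 5 tested events, 1 with a higher and 4 with a lower mean. SLC12A9, an orphan of this family, had rates of 0.957, 0.867 and 0.782 in control and 0.846, 0.652 and 0.481 in the RBM47 cultures. The ranges overlapped slightly, and the difference of -0.208 (limma adjusted p = 0.399) was -0.0523 from summed reads (Fisher's exact p = 0.132), -0.119 without RBM47 replicate 3 and -0.302 without RBM47 replicate 1. Another SLC12A9 event, whose span matched the same exon, differed by only -0.0192 on 562 reads. The remaining events of the gene differed by 0.106 and -0.0425. SLC12A4 (KCC1) was between 0.959 and 0.985 in all 6 cultures. SLC9A7, a sodium/proton exchanger of the trans-Golgi network, kept its 60-base exon at 0.938, 0.950 and 0.852 in control and 0.769, 0.818 and 0.75 in RBM47 cells without overlap (difference -0.134, Fisher's exact p = 0.0572, limma adjusted p = 0.482). The phosphate importer SLC20A2 had rates of 0.385, 0.267 and 0.267 in control and 0.174, 0.235 and 0.0769 in RBM47 cells, also without overlap (limma adjusted p = 0.596).

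The other genes followed by name had little to distinguish the groups. SLC16A3 (MCT4), the lactate exporter, kept its most-read exon at 0.998, 0.995 and 0.999 in control and in all 5202 RBM47 reads. The phosphate transporter SLC20A1 had means of 0.998 and 0.992 on 7278 and 3249 reads (Fisher's exact p = 0.00895). The iron transporter SLC11A2, the UDP-galactose carrier SLC35A2 and the glucose 6-phosphate carrier SLC37A4 were at 1.00 in all 6 cultures. The choline transporter SLC44A1 was at 1.00 in 5 cultures and at 0.946 in RBM47 replicate 1. Of 24 genes listed to be followed whatever their values, 16 had an event.

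The group totals also show how many junction reads each gene had. They are sums over 3 cultures with no spread between cultures, so they carry no test, and the 95% intervals given cover counting error only. For each of the 95 SLC genes that reached 100 reads in both groups, the ratio of RBM47 to control reads was taken in its most-read event. The median ratio was 0.855, against 0.895 over 6256 genes of the table. A ratio of at most 0.5 was found in 9 of the 95 (9.47%, against 7.02% of all genes) and of at least 2 in 1 (1.05%, against 0.767%). SLC50A1 stood highest at 2.03 (95% interval 1.88 to 2.19), with 951 reads in control and 1929 in RBM47 cells. SLC27A5, a fatty acid transport protein that also activates bile acids, followed at 1.46, then SLC35C2 at 1.44, the citrate carrier SLC25A1 at 1.41 and the carnitine transporter SLC22A5 at 1.36. SLC30A6 stood lowest at 0.358 (95% interval 0.298 to 0.429), with 455 and 163 reads. It was followed by the aspartate/glutamate carrier SLC25A12 at 0.361, the neuronal-type glucose transporter SLC2A3 at 0.377, SLC38A2 at 0.401 and the thiamine transporter SLC19A2 at 0.409. SLC38A2 was supported by 2572 and 1032 reads, and its relative SLC38A1 had a ratio of 0.469.

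**Figure D5:**
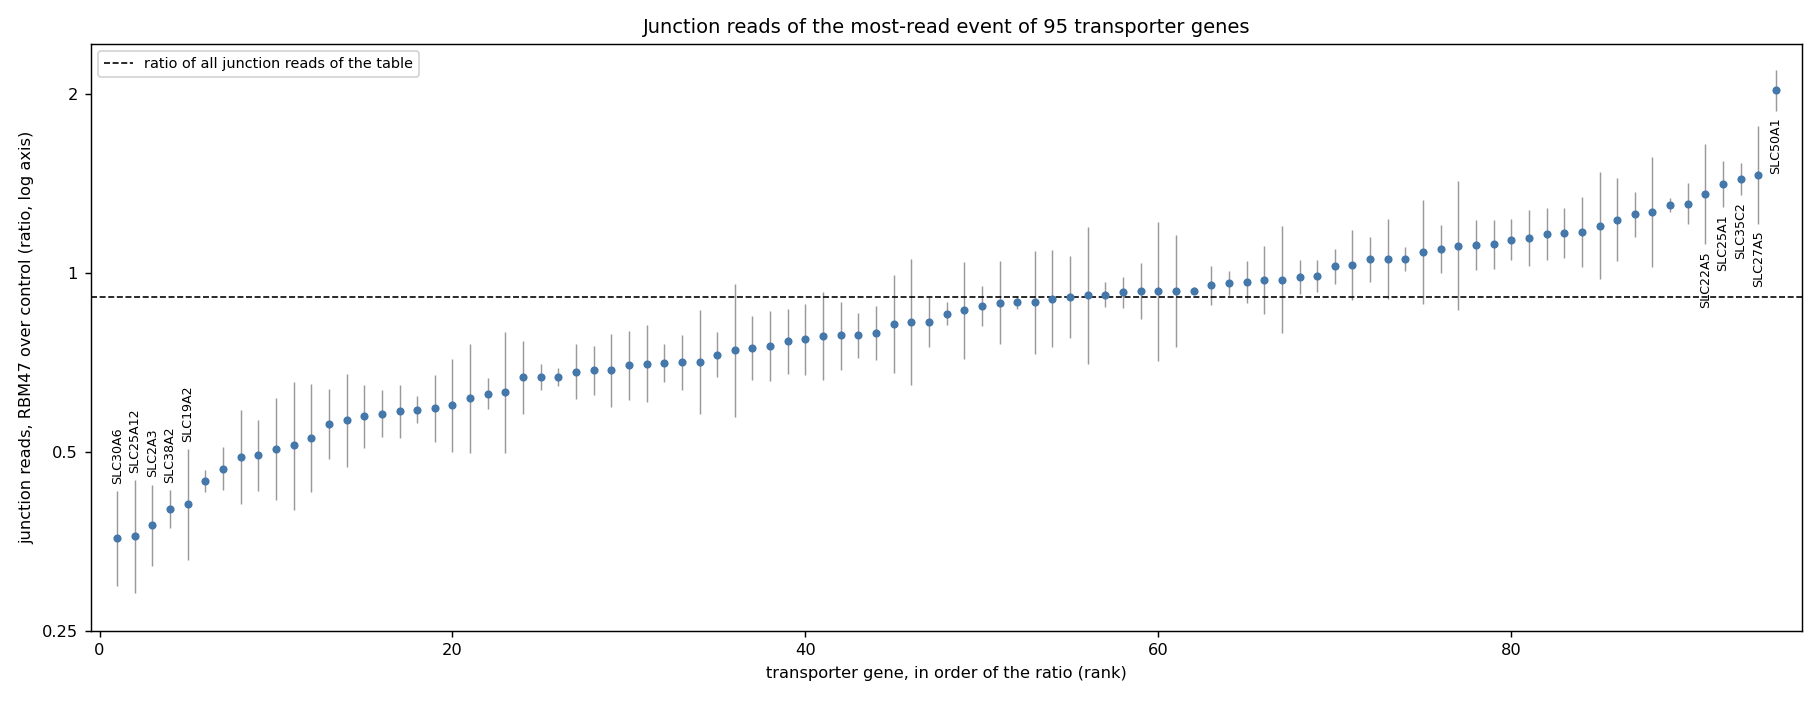
Ratio of junction reads in RBM47 over control cells (log axis) in the most-read event of each of 95 SLC genes with at least 100 reads in each group, in order of the ratio, with 95% intervals for counting error. The dashed line is the ratio of all junction reads of the table, 0.910, and the 5 lowest and 5 highest genes are named, from SLC30A6 at 0.358 to SLC50A1 at 2.03.

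In SLC30A6 the exon was kept more often in RBM47 cells while the gene had fewer junction reads. For SLC30A6 the skipping reads of the exon went from 62 to 15 and the including reads from 154 to 87, so both isoforms had fewer reads.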

How the data were processed

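RNA-seq libraries (TruSeq, poly(A) selected) were made from 3 control and 3 RBM47 cultures, grouped by the sample labels. Per the labels' processing notes reads were aligned with TopHat, and the study's methods name STAR and hg19; the build of the table's coordinates is not given in the sources used here. The authors deposited inclusion rates per sample, as fractions, for each cassette exon event. They also gave the counts of including and skipping reads, summed over the samples of a group. Rates from summed reads were computed here as including reads over including plus 2 times skipping reads. The deposited rates are not always this fraction of the deposited counts. Among SLC rows whose rates averaged to the printed means, 20 events had a rate of 0 in all 3 controls. Of these 20, 9 had including reads in control. Their own difference, odds ratio and p-value (3 columns) were not used. In 1392 of 24725 rows the rates did not average to the printed means: 1122 were re-matched by both means, 252 by the RBM47 mean (tolerance 3e-09), and 18 were left without rates.

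Fisher's exact test (two-sided, scipy 1.17.1) was recomputed on the summed counts for 24707 events. Replicates were tested with limma 3.58.1 (R 4.3.3) on arcsine square-root transformed rates, with the variance allowed to follow log2 reads, and Benjamini-Hochberg adjustment. Nothing in the labels says how the cultures were started, so p-values measure the spread between these cultures only. Replicate numbers did not pair the samples. Named events were those past the study's criteria or limma, the 10 largest other differences tested, the most-read event of 24 listed genes and the 5 highest and 5 lowest read ratios; other events named were chosen after their values were seen. A few events that the rule named are not reported here. Substrate groups follow SLC family numbers. The members, lists and form of the limma test were chosen with earlier results of these data known. Exons came from GENCODE v44lift37 on GRCh37. Alternatives concerned thresholds, transformation, matching, membership and each culture left out.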

Additional observations from a re-analysis of the deposited data

How the results depend on the processing

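The 5 SLC events past the study's criteria, all higher in RBM47 cells, numbered 1 with Benjamini-Hochberg adjusted Fisher p, 10 with a difference of at least 0.1, 2 with only the rows aligned as deposited and 3 with 1 event per outer span. The 0 events in the lower direction became 5 with a difference of at least 0.1 and 1 with rates from summed reads. Leaving out each culture gave 4 to 6 higher and 0 to 1 lower. Leaving out SLC9A3R1, with or without SLC2A4RG, or adding the SLCO, or the SLC35E and SLC35F symbols, left the counts within 1.5 times, where SLC2A4RG and SLC35E and SLC35F were chosen after seeing the data. Over all events the 347 became 208 with adjusted Fisher p, 892 at 0.1, 158 at 0.3 and 76 with aligned rows only, and 333 to 379 without each culture. The SLC25A40 difference ranged from -0.0256 (without RBM47 replicate 3) to 0.474. For SLC29A1 and SLC29A2 leaving out each culture was added after seeing the data.

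The 0 SLC events past limma became 1 with log2 odds and 0.01 added and 1 with no variance trend (SLC25A35 in both), and 0 to 1 without each culture (SLC39A9 without RBM47 replicate 1). Over all events the 92 became 56 with no trend, 46 with all mean rates, 1 with aligned rows only and 49 to 69 without each culture. No paired design was found: with a replicate block SLC events past limma were 0 and all events 69, and the deviations of same-numbered cultures had correlations of -0.0223, -0.00555 and 0.0141. The median difference of 0 became a mean of 0.00387. Where a threshold or the set of rows or cultures did not set the change, the cause was not tested. Depth per culture is unknown. Several events share junctions, and SLC10A7, SLC22A18, SLC7A6 and SLC25A40 rested on 48 to 173 reads.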
